A study of Homo sapiens with 18 samples.

Results

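Histone-modifying and chromatin-remodeling genes were taken as 1 set by their symbols, from the families of lysine demethylases (KDM), lysine acetyltransferases (KAT), lysine methyltransferases and SET domain genes (KMT, SETD), PR domain zinc finger genes (PRDM), bromodomain genes (BRD), chromodomain helicases (CHD), AT-rich interaction domain genes (ARID), PHD finger genes (PHF) and JADE genes. A symbol had to hold a digit, and JADE2, KAT2A and CHD3 were left out. The rule is written in symbols, with the brightest probe set taken for each symbol, but the members were chosen with earlier results of these data known. JADE2, KAT2A and CHD3 were all called lower with both inhibitors and both combinations, so leaving them out lowers the counts of falls given below. The rule found 96 of the 14884 genes named on the array, on 99 probe sets. They comprised 19 KDM, 18 PHF, 13 KMT or SETD, 11 PRDM, 9 CHD, 8 ARID, 6 KAT, 5 BRD and 2 JADE genes. The symbol pattern also took in 5 katanin genes (KATN), which encode microtubule-severing enzymes and are no chromatin genes. The BRD and katanin genes each hold 1 pseudogene. The pattern also covers the SMARC and ING families, but it found none of their genes among the named probe sets.

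Expression was measured in U937 cells, a long-established human line of the monocytic lineage that was derived from a lymphoma. The platform was the Affymetrix Human Gene 2.0 ST array, with 18 arrays in all. The 6 groups of 3 arrays were untreated control cells, cells given decitabine (5-aza-2'-deoxycytidine), cells given panobinostat, cells given valproic acid, and cells given decitabine plus either inhibitor. Decitabine came in 3 pulses of 24 h, and inhibitor treatment lasted 24 h, alongside the final pulse in the combinations. The sample titles carry the numbers 50 for decitabine, 8 for panobinostat and 1 for valproic acid with no unit given, and the inhibitor doses cannot be called matched. Decitabine is a cytidine analog that traps DNA methyltransferases once it is built into DNA, and panobinostat and valproic acid inhibit histone deacetylases. All values are log2 signals. A gene was called changed when its Benjamini-Hochberg adjusted p from limma, over all 14884 genes, was under 0.05. The labels do not say whether replicates were grown separately, so p-values measure only the spread between these samples, which may be technical.

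The proteins of these families add, remove or read marks on histone tails, or move nucleosomes with the energy of ATP. Acetyltransferases and methyltransferases write a mark, demethylases erase it, and bromodomains, chromodomains and PHD fingers bind it. In blood cells several of them, among them KDM1A, KDM2B and ARID5B, are known for parts in lineage choice or leukemia, and histone deacetylases, which the inhibitors block, sit in some of the same complexes.

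The array medians ran from 3.82 to 3.87, and the median of all values was 3.84, so levels near that carry little signal. Of the 96 members, 77 (80.2%) had a mean level of at least 5, against 46.5% of all genes. Of 12 myeloid markers, 8 were measured. MPO at 12.28, CD4 at 9.74, CD68 at 7.53 and LYZ at 7.33 were well above the array median in control cells, while ANPEP at 3.94 and CD14 at 3.45 were near it. With decitabine plus panobinostat, 4 of these 8 markers were called higher and 2 lower, beside 11.2% and 12% of all genes. With decitabine plus valproic acid 4 were called higher and 1 lower, beside 8.9% and 8.06% of all genes. The part of these markers in the results below was not tested. In such bulk samples fewer cells of a type and less RNA per cell cannot be told apart. On the first principal component of all genes, which held 34.2% of the variance, replicate 1 of decitabine plus valproic acid lay at 12 and the other arrays of its group at 23.9 and 30.6. The member count of that group against control was 21 with it and 21 without it.

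Promoters of 4 genes that carry the patterns described below are printed, since 1 agent acts on DNA methylation: ARID5B was higher with every treatment, KDM2B fell with both inhibitors, KATNAL2 fell wherever decitabine was given, and JADE1 was called lower with both combinations. Shown are the 250 bases before the RefSeq start of each, 5' to 3' (RefSeq, GRCh38.p14), with the CG dinucleotides, the sites at which DNA methyltransferases act, in capitals.
ARID5B, chr10:61901449-61901698, plus strand: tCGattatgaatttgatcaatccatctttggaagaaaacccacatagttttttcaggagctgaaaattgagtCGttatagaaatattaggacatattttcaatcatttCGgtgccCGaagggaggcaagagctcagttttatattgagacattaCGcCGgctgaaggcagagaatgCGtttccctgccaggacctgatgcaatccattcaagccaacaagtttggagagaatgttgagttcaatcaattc
KDM2B, chr12:121581024-121581273, minus strand: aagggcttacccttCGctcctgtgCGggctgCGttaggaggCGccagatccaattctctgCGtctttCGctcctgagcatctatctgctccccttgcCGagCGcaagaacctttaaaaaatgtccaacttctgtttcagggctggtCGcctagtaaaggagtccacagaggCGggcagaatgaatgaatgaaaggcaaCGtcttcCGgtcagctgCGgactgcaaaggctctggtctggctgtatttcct
KATNAL2, chr18:46917344-46917593, plus strand: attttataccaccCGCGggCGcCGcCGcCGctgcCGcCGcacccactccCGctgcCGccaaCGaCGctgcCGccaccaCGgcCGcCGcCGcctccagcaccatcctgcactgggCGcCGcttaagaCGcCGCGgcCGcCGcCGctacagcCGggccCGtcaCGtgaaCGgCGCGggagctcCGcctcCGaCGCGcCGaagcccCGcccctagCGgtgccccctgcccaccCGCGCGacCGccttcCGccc
JADE1, chr4:128809450-128809699, plus strand: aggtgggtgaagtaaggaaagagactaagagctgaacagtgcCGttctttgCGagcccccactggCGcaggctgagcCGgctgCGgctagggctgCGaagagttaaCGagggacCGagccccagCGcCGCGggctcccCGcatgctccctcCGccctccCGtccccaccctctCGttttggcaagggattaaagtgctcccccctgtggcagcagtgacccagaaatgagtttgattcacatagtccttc
The ARID5B window held 7 CG dinucleotides and had 40.4% G and C, the KDM2B window 13, the JADE1 window 15 and the KATNAL2 window 43. Of the promoters in the table, 99.2% held as many as KATNAL2 or fewer. A promoter was listed for 79 of the 96 members. Their median was 22 CG dinucleotides, against 11 over all 35116 promoters, and 91.1% of the members' windows held at least 10 against 52.2% of all. The full set was not limited to genes on the array or to genes expressed here, so these sets are unlike. Among members called higher than control in any comparison the median was 28.5 (8 promoters), among those called lower 25 (21 promoters), and among those never called 21.5 (50 promoters). A start in this table need not be the one used in U937 cells, and no methylation was measured.

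In all, 33 of the 96 members (34.4%) differed from control with at least 1 of the 5 treatments, against 28.7% of all genes. Of these, 10 were called only higher (10.4%, against 14.3% of all genes) and 23 only lower (24%, against 14.3%), and none in both directions. When only genes with a mean level of at least 5 were tested, 36 of 77 members (46.8%) were called, against 51.5% of all genes of that level. Of those members 10 were called only higher (13%, against 21.3%) and 26 only lower (33.8%, against 29.7%). The other 63 were not called in any of the 5, and their largest change was 0.85 (PHF7, smallest adjusted p 0.0863). Single agents changed 15 members (15.6%, against 12.9% of all genes), combinations changed 30 (31.2%, against 26.2%), and 18 were called with a combination and with no single agent (18.8%, against 15.8%). All genes were also called more often with the combinations than with single agents. This last count compares calls and not sizes, and no interaction was called for any of them.

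Decitabine alone changed 2 of 96 members (2.08%), against 3.96% of all genes (2.57% up, 1.39% down). ARID5B rose and KATNAL2 fell. The median change of the members was -0.014 and that of all genes -0.007.
Panobinostat alone changed 13 members, 6 up and 7 down (13.5%, against 7.39% of all genes, 3.92% up and 3.47% down), with a median of -0.108 against -0.015.
Valproic acid alone changed 8 members, 6 up and 2 down (8.33%, against 7.47% of all genes, 4.73% up and 2.74% down), with a median of -0.063 against -0.004.
Decitabine plus panobinostat changed 26 members, 9 up and 17 down (27.1%, against 23.2% of all genes, 11.2% up and 12% down), with a median of -0.085 against -0.022. The share called lower was 17.7% of members and 12% of all genes.
Decitabine plus valproic acid changed 21 members, 6 up and 15 down (21.9%, against 17% of all genes, 8.9% up and 8.06% down), with a median of -0.121 against -0.016. The share called lower was 15.6% of members and 8.06% of all genes.
When only genes with a mean level of at least 5 were tested, the members' shares lay below those of all genes in each of the 5 comparisons. They were then 2.6% against 7.99% with decitabine, 16.9% against 17.6% with panobinostat, 10.4% against 17.3% with valproic acid, 39% against 41.9% with decitabine plus panobinostat, and 26.0% against 31.2% with decitabine plus valproic acid. With that filter the share called lower was 28.6% of members and 25.5% of all genes with decitabine plus panobinostat, and 18.2% and 17.2% with decitabine plus valproic acid. The median changes were then -0.139 for members and -0.117 for all genes in the first combination, and -0.167 and -0.071 in the second.

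**Figure D1:**
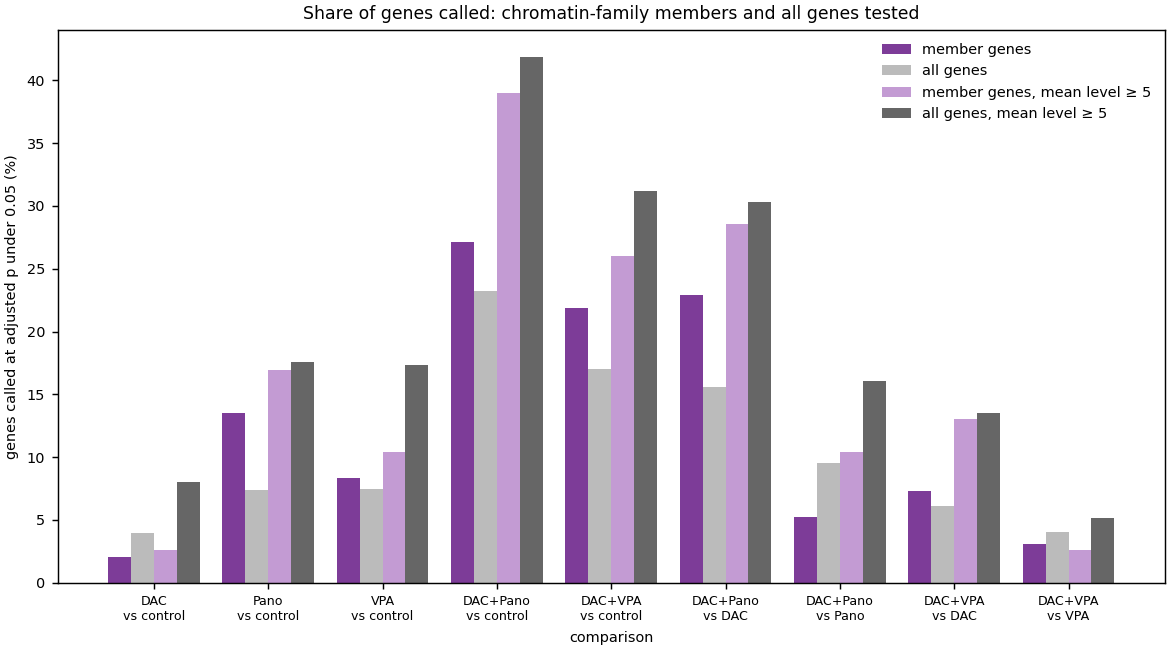
Share of genes called at an adjusted p under 0.05 (percent, vertical axis) in 9 comparisons (horizontal axis), for the 96 members and all 14884 genes, and again with only genes of mean log2 level of at least 5 tested. In decitabine plus panobinostat against control the member share was 27.1% beside 23.2% of all genes, and 39% beside 41.9% with the level filter.

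**Figure D2:**
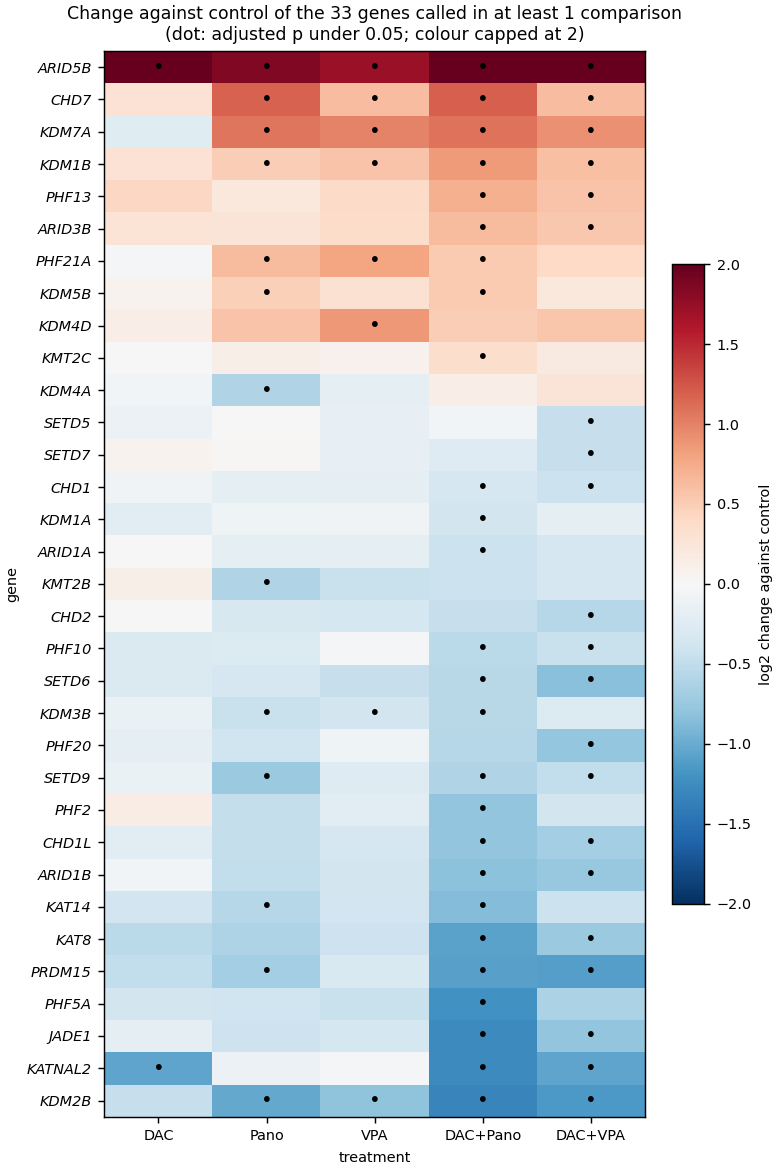
Log2 change against control (colour, limited at 2) of the 33 members called in at least 1 of the 5 comparisons, with a dot where the adjusted p was under 0.05. ARID5B has a dot in all 5 columns, and the decitabine column holds 2 dots.

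Among the ARID genes, DNA-binding proteins that include subunits of the BAF remodeling complex, ARID5B was the one member called with every treatment. ARID5B, known as a partner of the demethylase PHF2, read 6.58, 6.75 and 6.23 on the control arrays. It read 8.70, 8.46 and 8.36 with decitabine, 8.21, 8.13 and 8.80 with panobinostat, and 8.72, 7.98 and 8.04 with valproic acid. It reached 9.51, 9.66 and 10.09 with decitabine plus panobinostat, and 9.13, 9.04 and 9.53 with decitabine plus valproic acid. No treated array overlapped the control arrays, the single agents overlapped one another, and both combinations lay above all single-agent arrays. The rises were 1.99 with decitabine, 1.86 with panobinostat, 1.73 with valproic acid, 3.24 (9.42-fold, limma adjusted p 5.07e-08) with decitabine plus panobinostat and 2.71 (6.55-fold, adjusted p 6.77e-07) with decitabine plus valproic acid, each with a standard error (SE) of 0.23. ARID5B also rose in the first combination over decitabine by 1.25 (SE 0.23) and over panobinostat by 1.38. Over decitabine alone, decitabine plus valproic acid was higher by 0.73 (95% interval 0.24 to 1.21), which was not called (limma adjusted p 0.074). It passed the threshold when only genes with a mean level of at least 5 were tested (adjusted p 0.0484) and with a variance trend on the mean level (adjusted p 0.0452). Its rise of 0.98 over valproic acid alone (adjusted p 0.0223) was lost without replicate 3 of the combination (adjusted p 0.101), valproic acid replicate 2 (0.0999) or valproic acid replicate 3 (0.0946). Both combinations changed ARID5B by less than the sum of the single agents on the log2 scale, by 0.61 and 1.00 less, and neither interaction passed the test (limma adjusted p 0.554 and 0.355).

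ARID3B, another DNA-binding ARID gene, rose with both combinations, by 0.63 and 0.53, and read 6.63, 7.07 and 7.06 in control against 7.84, 7.40 and 7.41 with decitabine plus panobinostat. Without control replicate 1 its call with decitabine plus valproic acid was lost (adjusted p 0.0778). ARID1A and ARID1B, which stand in for each other as BAF subunits, moved down. ARID1B read 8.43, 8.78 and 8.86 in control, 7.85, 8.24 and 7.52 with decitabine plus panobinostat and 8.27, 7.75 and 7.79 with decitabine plus valproic acid. These groups did not overlap, and the falls were 0.82 and 0.75 (adjusted p 0.00398 and 0.0102), held without any single array. ARID1A fell by 0.42 with decitabine plus panobinostat (adjusted p 0.0201), a call lost without control replicate 2, control replicate 3 or combination replicate 1 (adjusted p up to 0.091), and its change with decitabine plus valproic acid was -0.33 (adjusted p 0.0828).

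Family counts from here on are without the level filter. Of the 19 demethylase genes, 8 were called with at least 1 treatment, where 28.7% of all genes were (51.5% with the filter). They went 3 up and 3 down with panobinostat, 3 up and 2 down with valproic acid, 3 up and 3 down with decitabine plus panobinostat, 2 up and 1 down with decitabine plus valproic acid, and none with decitabine. KDM1B, a flavin-dependent demethylase of histone H3 lysine 4, read 8.90, 9.12 and 9.01 in control, and every treated array lay above these. It read 9.77, 10.00 and 9.83 with decitabine plus panobinostat, a rise of 0.86 (SE 0.12, adjusted p 5.5e-05), and it rose by 0.61 with decitabine plus valproic acid, 0.58 with valproic acid and 0.49 with panobinostat. The last of these calls was lost without panobinostat replicate 2 or either of control replicates 1 and 3 (adjusted p up to 0.0745). Its paralog KDM1A, the demethylase of the CoREST complex, fell by 0.37 with decitabine plus panobinostat (11.27, 11.22 and 11.30 in control against 10.94, 10.84 and 10.92, adjusted p 0.00928) and was not called with the other treatments, where it changed by -0.20 to -0.07. The paralogs thus moved in opposite directions under this treatment, and the difference between them was not tested.

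KDM7A, a demethylase of the repressive marks on lysines 9 and 27 of histone H3, had 1 low control array. It read 7.17, 7.06 and 5.79 in control and 7.83, 7.80 and 7.58 with panobinostat, and the other inhibitor groups lay between 7.46 and 7.89. The rises were 1.06 with panobinostat and 1.08 when decitabine was given as well, and 0.99 with valproic acid and 0.91 when decitabine was given as well. Without control replicate 3 these were 0.62, 0.64, 0.54 and 0.47 (adjusted p 0.0226, 0.00534, 0.0459 and 0.0429). The calls with panobinostat were lost without panobinostat replicate 1 or 2 (adjusted p up to 0.0567), those with valproic acid without valproic acid replicate 1 or 2 (up to 0.117), and that with decitabine plus valproic acid without combination replicate 2 (0.0616). Against decitabine, where KDM7A read 6.65, 6.31 and 6.33, decitabine plus panobinostat was higher by 1.32 (adjusted p 0.002) and decitabine plus valproic acid by 1.16 (adjusted p 0.0139). The latter was lost without decitabine replicate 3 or combination replicate 2 (adjusted p up to 0.0573).

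KDM2B, a demethylase that binds unmethylated CG-rich DNA and brings a Polycomb complex to it, had the largest fall of the demethylases. It read 6.19, 6.32 and 6.37 in control, 6.22, 5.62 and 5.65 with decitabine, 5.18, 5.24 and 5.41 with panobinostat and 5.06, 5.74 and 5.65 with valproic acid. With decitabine plus panobinostat it read 5.02, 4.69 and 5.19, and with decitabine plus valproic acid 4.84, 5.13 and 5.46. All arrays with an inhibitor lay below all control arrays, and the decitabine arrays overlapped control. It fell by 1.02 with panobinostat, by 1.33 (SE 0.20, adjusted p 0.000152) with panobinostat and decitabine, and by 1.15 with valproic acid and decitabine, and these calls held without any single array. The fall of 0.81 with valproic acid was lost without valproic acid replicate 1 or either of control replicates 2 and 3 (adjusted p up to 0.126). Its change with decitabine was -0.46 (adjusted p 0.264).

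KDM3B, an eraser of methylation at lysine 9, fell by 0.45 with panobinostat, 0.36 with valproic acid and 0.56 with decitabine plus panobinostat. It read 9.90, 10.07 and 10.15 in control and 9.51, 9.41 and 9.52 with decitabine plus panobinostat, without overlap. That call held without any single array. The one with panobinostat was lost without control replicate 3 or panobinostat replicate 1 (adjusted p up to 0.0633), and the one with valproic acid held in 1 of 6 such fits (up to 0.152). KDM5B, which erases methylation at lysine 4, rose by 0.53 with decitabine plus panobinostat (8.44, 8.52 and 8.45 against 8.85, 9.12 and 9.02, adjusted p 0.0025) and by 0.48 with panobinostat, a call held in 2 of 6 fits without 1 array (up to 0.0778). KDM4D was called with valproic acid, where it rose by 0.87, from 4.94, 4.86 and 4.82 to 5.93, 5.69 and 5.60, and lost the call without valproic acid replicate 1 (adjusted p 0.0659).

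KDM4A, a demethylase of lysines 9 and 36, showed a different order of groups. It read 9.11, 8.88 and 9.09 in control, 9.11, 9.07 and 8.73 with decitabine, 8.37, 8.57 and 8.36 with panobinostat, and 8.96, 9.21 and 9.32 with both. The panobinostat arrays lay below all of these others, and the combination overlapped control. KDM4A fell by 0.60 with panobinostat (SE 0.13, adjusted p 0.00867) and was 0.73 higher with the combination than with panobinostat (adjusted p 0.00164), both held without any single array. The interaction was 0.79 (SE 0.18) with an adjusted p of 0.0652, the smallest among the members.

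KDM5A, KDM6A and KDM6B, which erase marks at lysines 4 and 27, were not called with any treatment. With decitabine plus panobinostat the 95% interval of the change was -0.21 to 0.43 for KDM5A, -0.48 to 0.29 for KDM6A and -0.03 to 0.63 for KDM6B. Larger changes lie outside these intervals, and smaller ones cannot be told from no change.

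**Figure D3:**
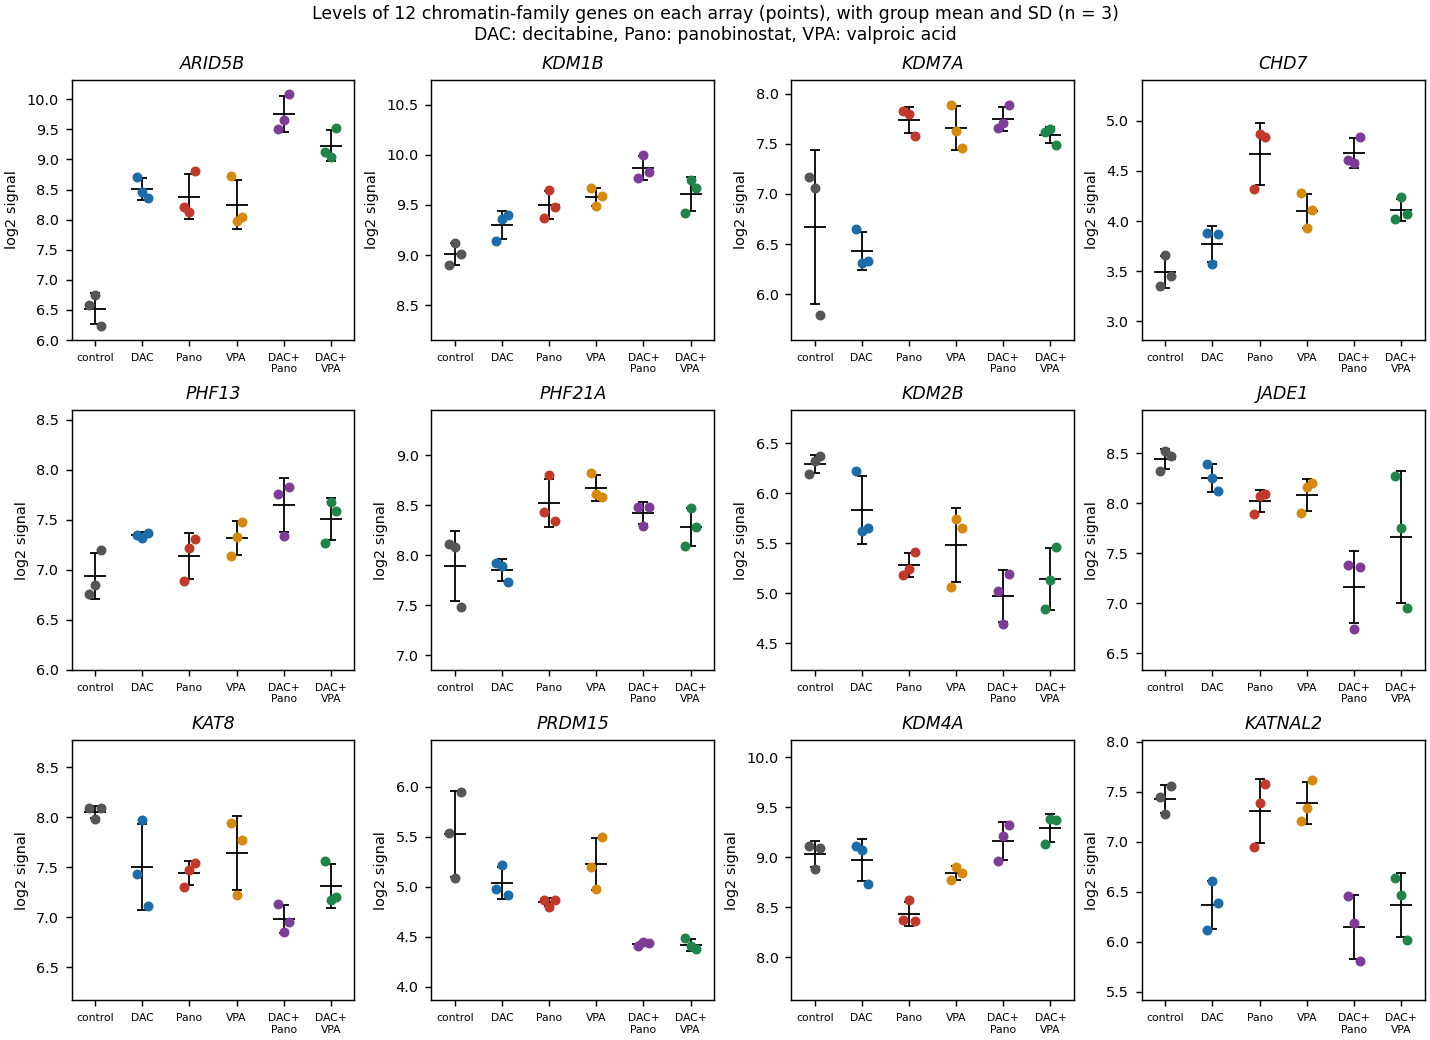
Log2 signal (vertical axis) of 12 members on each of the 18 arrays by treatment group (horizontal axis), with the group mean as a long line and the SD as whiskers (n = 3). ARID5B lies between 6.23 and 6.75 in control and between 9.51 and 10.09 with decitabine plus panobinostat, and 1 control array of KDM7A lies at 5.79.

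Of the 6 acetyltransferase genes, 2 were called lower with at least 1 treatment and none higher. Of all genes 14.3% were called only lower and 14.3% only higher, or 29.7% and 21.3% with the level filter. KAT8, the writer of acetylation at lysine 16 of histone H4, read 8.09, 7.98 and 8.09 in control, 7.13, 6.85 and 6.95 with decitabine plus panobinostat and 7.56, 7.17 and 7.20 with decitabine plus valproic acid. It fell by 1.07 (SE 0.20, adjusted p 0.000786) and 0.74 (adjusted p 0.0165). The first call held without any single array, and the second was lost without control replicate 1, control replicate 3, or combination replicate 2 or 3 (adjusted p up to 0.0661). All single-agent arrays of KAT8 also lay below control, with changes of -0.55, -0.62 and -0.41 that were not called (adjusted p 0.162, 0.0764 and 0.274).

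KAT14, a subunit of the ATAC complex, fell by 0.86 with decitabine plus panobinostat (7.49, 7.85 and 7.29 in control against 6.50, 6.70 and 6.84, adjusted p 0.000655). It fell by 0.58 with panobinostat, where the call held in 2 of 6 fits without 1 array (adjusted p up to 0.157). KAT2B, the paralog of the left-out KAT2A, was not called, at changes of 0.47 with decitabine (95% interval 0.18 to 0.76, adjusted p 0.0697) and 0.10 with decitabine plus panobinostat (-0.19 to 0.38). KAT5, KAT6B and KAT7 were not called against control, but were lower with decitabine plus panobinostat than with decitabine alone, by 0.71, 0.54 and 0.69 (adjusted p 0.0321, 0.00339 and 0.0171). KAT6B read 9.54, 9.66 and 9.37 with decitabine and 8.98, 8.96 and 9.01 with the combination, held without any single array. The calls of KAT5 and KAT7 held in 1 and 3 of 6 fits without 1 array (adjusted p up to 0.139 and 0.0824).

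JADE1 is a scaffold of the KAT7 complex. It read 8.32, 8.52 and 8.47 in control, 8.39, 8.25 and 8.12 with decitabine and 7.89, 8.07 and 8.09 with panobinostat. With decitabine plus panobinostat it read 7.38, 6.74 and 7.36, below every array of those groups, and it fell by 1.27 against control (SE 0.24, adjusted p 0.000964) and by 1.09 against decitabine (adjusted p 0.0057), both held without any single array. The fall of 0.85 against panobinostat (adjusted p 0.0352) held in 2 of 6 such fits (up to 0.151). With decitabine plus valproic acid the arrays spread from 8.27 over 7.75 to 6.95, and the fall of 0.78 was 0.43 without combination replicate 3 (adjusted p 0.182). The interaction of decitabine and panobinostat for JADE1 was -0.67 (95% interval -1.40 to 0.06, adjusted p 0.534). JADE3 was not called.

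Of the 13 methyltransferase and SET domain genes, 6 were called with at least 1 treatment, 1 up and 5 down. Of all genes 28.7% were called, and 51.5% with the level filter. SETD9, a SET domain gene, read 5.48, 5.65 and 5.46 in control and 4.71, 4.65 and 5.00 with panobinostat, and fell by 0.74 (SE 0.16, adjusted p 0.00867). That call held without any single array. Its falls of 0.60 and 0.49 with the combinations did not (4 and 0 of 6 fits kept them, adjusted p up to 0.0617 and 0.176). SETD6, known to methylate the NF-kB subunit RELA, fell by 0.84 with decitabine plus valproic acid (5.45, 5.66 and 6.09 against 4.73, 4.94 and 5.00, adjusted p 0.00609), held without any single array. With decitabine plus panobinostat it fell by 0.56 (adjusted p 0.0461), with arrays that overlapped control, and 2 of 6 fits kept the call (up to 0.225).

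KMT2B and KMT2C are paralogs that methylate lysine 4 of histone H3. KMT2B fell by 0.60 with panobinostat (adjusted p 0.0471), a call that 1 of 6 fits without 1 array kept (up to 0.192). KMT2C rose by 0.35 with decitabine plus panobinostat (9.99, 10.22 and 10.11 against 10.38, 10.44 and 10.56, adjusted p 0.0183), lost without control replicate 1 or combination replicate 3 (adjusted p up to 0.084). KMT2D, another paralog, was at -0.45 there and was not called (95% interval -0.79 to -0.11, adjusted p 0.055). SETD5 and SETD7 each fell by 0.46 with decitabine plus valproic acid (adjusted p 0.0195 and 0.042), and 3 and 2 of 6 fits kept these calls (up to 0.0988 and 0.176). SETD2, the writer of trimethylation at lysine 36, was not called, with a change of -0.12 with decitabine plus panobinostat (95% interval -0.35 to 0.10).

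Of the 9 chromodomain helicases, CHD7 rose and CHD1, CHD1L and CHD2 fell with at least 1 treatment. Beside these stand 28.7% of all genes called, and 51.5% with the level filter. CHD7, the remodeler mutated in CHARGE syndrome, lay near the array median in control at 3.35, 3.66 and 3.45, so its change may be understated. It read 4.32, 4.87 and 4.84 with panobinostat, 4.28, 3.93 and 4.11 with valproic acid, 4.61, 4.58 and 4.84 with decitabine plus panobinostat and 4.02, 4.24 and 4.07 with decitabine plus valproic acid. All inhibitor arrays lay above control. The rises were 1.19, 0.62, 1.19 and 0.62 in that order (SE 0.15, adjusted p 0.000134, 0.0208, 3.08e-05 and 0.00938), and the second was lost without control replicate 1 or 3 or valproic acid replicate 1 or 3 (adjusted p up to 0.106). Panobinostat exceeded valproic acid by 0.57 (95% interval 0.25 to 0.89) and did so by 0.56 beside decitabine (0.24 to 0.89), but neither difference passed the test over all genes (limma adjusted p 0.224 and 0.114).

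CHD1L, a remodeler that acts at sites of poly(ADP-ribose), fell by 0.80 with decitabine plus panobinostat (8.70, 8.77 and 8.64 against 7.95, 7.95 and 7.83, SE 0.14, adjusted p 0.000601) and by 0.68 with decitabine plus valproic acid (adjusted p 0.00352), both held without any single array. CHD1, which binds methylated lysine 4, fell by 0.34 and 0.44 (adjusted p 0.0258 and 0.0075), and the first call was lost without control replicate 2 or 3 or combination replicate 1 (adjusted p up to 0.126). CHD2 fell by 0.57 with decitabine plus valproic acid (adjusted p 0.0249), which 2 of 6 fits kept (up to 0.11). CHD4, the helicase of the NuRD complex that holds histone deacetylases, was not called with any treatment, and its change with decitabine plus panobinostat was -0.04 (95% interval -0.28 to 0.20). CHD8 was at -0.04 as well (-0.32 to 0.24).

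None of the 5 bromodomain genes was called with any treatment, where 28.7% of all genes were (51.5% with the level filter). BRD2, a reader of acetylated histones, came nearest. It read 8.19 ± 0.18 (SD, n = 3) in control and 7.65 ± 0.10 with decitabine plus panobinostat, a change of -0.54 (95% interval -0.95 to -0.13, limma adjusted p 0.0527). BRD3 and BRD7 had changes of -0.04 there (-0.49 to 0.41 and -0.25 to 0.17).

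Of the 18 PHD finger genes, 6 were called with at least 1 treatment, 2 up and 4 down. The share of all genes was again 28.7%, and 51.5% with the level filter. PHF13, a reader of methylated lysine 4, rose by 0.71 with decitabine plus panobinostat (6.76, 6.85 and 7.20 against 7.76, 7.34 and 7.83, SE 0.16, adjusted p 0.004), held without any single array, and by 0.58 with decitabine plus valproic acid, which 2 of 6 fits kept (adjusted p up to 0.0931). PHF21A, the CoREST subunit that reads unmethylated lysine 4, read 8.11, 8.08 and 7.48 in control, 8.43, 8.80 and 8.34 with panobinostat and 8.82, 8.61 and 8.58 with valproic acid. It rose by 0.64 and 0.78 (adjusted p 0.025 and 0.00828). The valproic acid call held without any single array, and the panobinostat call was lost without control replicate 3 or panobinostat replicate 2 (adjusted p up to 0.128). Its rise of 0.53 with decitabine plus panobinostat was 0.33 without control replicate 3 (adjusted p 0.157).

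PHF5A, a component of the spliceosome rather than a histone reader, fell by 1.22 with decitabine plus panobinostat (SE 0.27, adjusted p 0.00283). It read 7.68, 7.65 and 7.60 in control and 6.46, 6.59 and 6.22 there, and the call held without any single array. With valproic acid its arrays spread from 6.40 to 7.90 and it was not called. PHF2, the demethylase partner of ARID5B, read 7.28, 7.62 and 7.79 in control and 6.94, 6.67 and 6.72 with decitabine plus panobinostat. It fell by 0.78 against control (adjusted p 0.00165) and by 0.94 against decitabine (adjusted p 0.000834), held without any single array, while ARID5B rose in both of these comparisons. PHF10, a subunit of the PBAF remodeler, fell by 0.54 and 0.44 with the combinations, the second kept by 2 of 6 fits (adjusted p up to 0.111). PHF20, a subunit of a KAT8 complex, fell by 0.77 with decitabine plus valproic acid, and this was 0.46 without combination replicate 2 (adjusted p 0.0942).

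Of the 11 PR domain genes, PRDM15 alone was called with at least 1 treatment, where 28.7% of all genes were. PRDM15, a zinc finger transcription factor, read 5.54, 5.09 and 5.95 in control, 4.41, 4.45 and 4.44 with decitabine plus panobinostat and 4.49, 4.41 and 4.38 with decitabine plus valproic acid. The arrays of both combinations lay below those of every other group. It fell by 1.09 and 1.10 (SE 0.17, adjusted p 0.00017 and 0.000316), both held without any single array, and by 0.68 with panobinostat, which 1 of 6 fits kept (up to 0.111). Of the other PR domain genes 8 had a mean level below 5, among them PRDM9, PRDM14 and PRDM16, so a change of theirs would be hard to see on this array. PRDM15 itself had a mean level of 4.92, so its fall may be understated.

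The katanin-like gene KATNAL2, which came in through the symbol pattern, was the only member called lower with decitabine. It read 7.45, 7.28 and 7.56 in control, 6.12, 6.61 and 6.39 with decitabine, 6.95, 7.39 and 7.58 with panobinostat and 7.21, 7.34 and 7.62 with valproic acid. In the combinations it read 6.46, 6.19 and 5.81 with panobinostat added, and 6.64, 6.47 and 6.02 with valproic acid added. The 9 arrays with decitabine lay below the 9 arrays without it. The falls were 1.06 with decitabine (SE 0.20, adjusted p 0.0061), 1.28 with panobinostat added and 1.06 with valproic acid added. Adding decitabine to panobinostat lowered it by 1.15 and adding it to valproic acid by 1.01 (adjusted p 0.00165 and 0.00812), and all 5 calls held without any single array. This pattern differs from that of KDM2B, where the inhibitor arrays were low. Without the 5 katanins the counts of called members were 1 up and 0 down with decitabine and 9 up and 16 down with decitabine plus panobinostat.

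**Figure D4:**
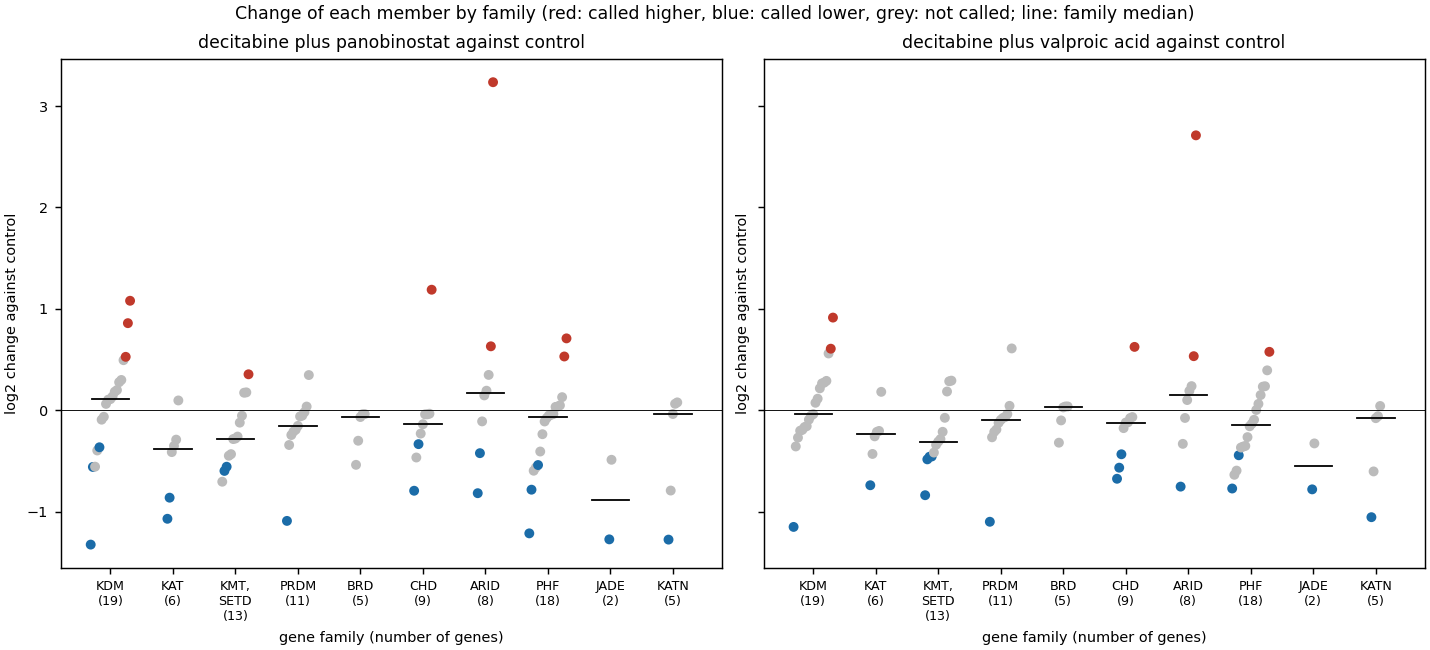
Log2 change against control (vertical axis) of each member by family (horizontal axis, number of genes in brackets) for the combination with panobinostat (left) and with valproic acid (right); red points were called higher, blue lower and grey not called, and lines are family medians. All 5 bromodomain genes are grey, and ARID5B is the highest point in both panels, at 3.24 and 2.71.

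Comparing each combination with its agents asks what the second agent added. Adding panobinostat to decitabine changed 22 members, 7 up and 15 down (22.9%, against 15.6% of all genes, 7.66% up and 7.91% down), and 28.6% against 30.3% when only genes of mean level of at least 5 were tested. Adding decitabine to panobinostat changed 5 (ARID5B, KDM4A and KDM2A up, KATNAL2 and JADE1 down), or 5.21% against 9.55% of all genes (5.42% up, 4.13% down). KDM2A, the paralog of KDM2B, rose there by 0.50 (adjusted p 0.0385), a call that 1 of 6 fits without 1 array kept (up to 0.159). Adding valproic acid to decitabine changed 7 members, KDM7A up and ARID1B, CHD1, CHD2, KAT6B, PRDM15 and SETD7 down (7.29%, against 6.13% of all genes, 3.57% up and 2.57% down), and none of these calls held in all 6 fits without 1 array. Leaving out single arrays moved that count from 0 (without combination replicate 2) to 10. Adding decitabine to valproic acid changed 3 members, ARID5B up and KATNAL2 and PRDM15 down (3.12%, against 4.03% of all genes, 2.63% up and 1.4% down). The fall of PRDM15 was 0.80 and was lost without valproic acid replicate 3 (adjusted p 0.0677). With the level filter, adding decitabine to panobinostat changed 10.4% of members against 16.1% of all genes. Adding valproic acid to decitabine then changed 13.0% against 13.5%, and adding decitabine to valproic acid 2.6% against 5.16%.

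Whether the agents together did more or less than the sum of their single changes was tested as an interaction. By limma no member was called for decitabine with panobinostat or with valproic acid (0.625% and 0.0605% of all genes were), and 4 and 6 members had an unadjusted p under 0.05 (10.5% and 7.72% of all genes). The members also gave no call between panobinostat and valproic acid (0.121% of all genes) or between the 2 combinations (0.652%), with 12 and 10 members at an unadjusted p under 0.05 (9.06% and 11.9% of all genes). These misses do not show that the inhibitors acted alike, and their doses may differ. Without replicate 1 of decitabine plus panobinostat, KDM4A was called for the first interaction (limma adjusted p 0.044).

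**Figure D5:**
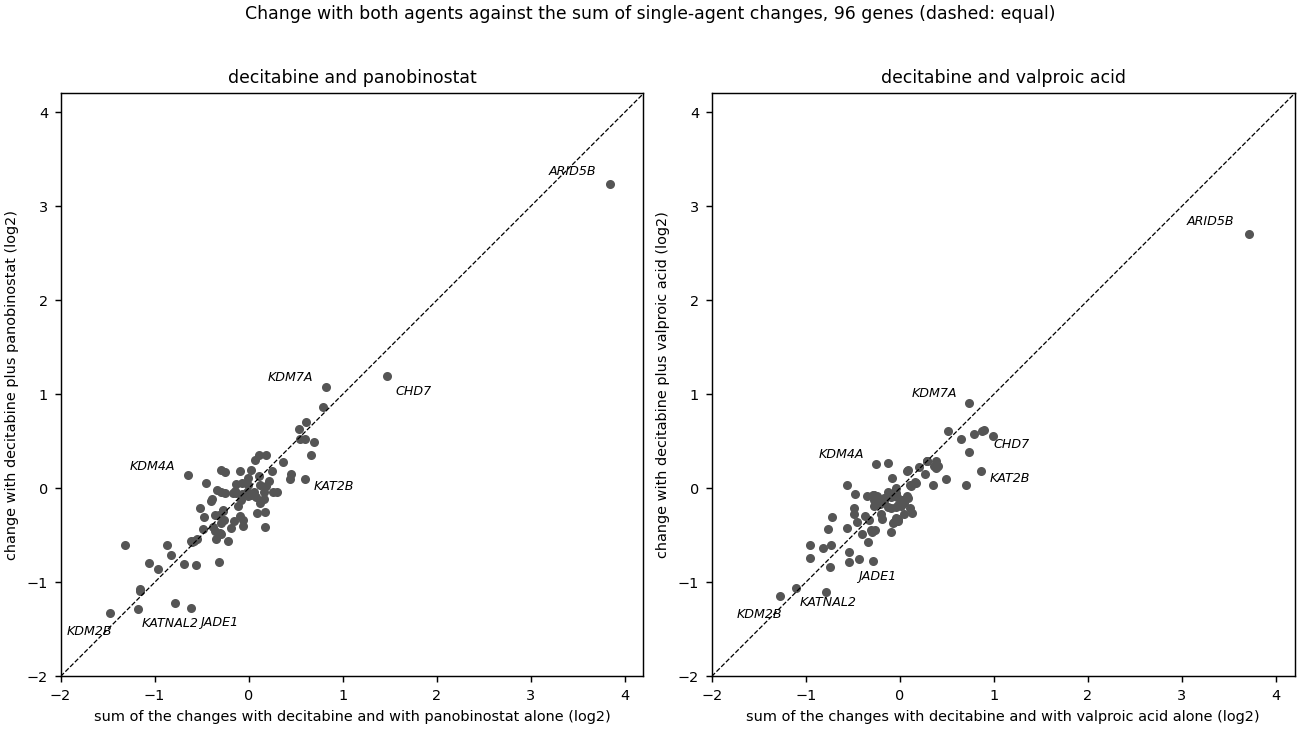
Log2 change with both agents (vertical axis) against the sum of the 2 single-agent changes (horizontal axis) for the 96 members, with a dashed line where they are equal. ARID5B lies below the line in both panels (3.24 against a sum of 3.84, and 2.71 against 3.71), JADE1 lies below it in the panobinostat panel (-1.27 against -0.61), and KDM4A lies above it (0.14 against -0.65).

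The calls differed in how they stood up to the loss of single arrays. With all single arrays left out in turn, 2 of 2 calls held throughout with decitabine, 5 of 13 with panobinostat, 3 of 8 with valproic acid, 20 of 26 with decitabine plus panobinostat and 10 of 21 with decitabine plus valproic acid. The panobinostat count was 7 without control replicate 3 or panobinostat replicate 2 and 8 without panobinostat replicate 1. The valproic acid count was 5 without control replicate 3 and 3 without valproic acid replicate 1. The count with decitabine plus valproic acid was 13 without combination replicate 2. That for decitabine plus panobinostat against decitabine was 13 without decitabine replicate 2 and 14 without decitabine replicate 3. That for decitabine plus panobinostat against panobinostat was 3 without panobinostat replicate 1 or 3. For decitabine plus valproic acid against decitabine the count was 1 without decitabine replicate 1 or 3, 2 without decitabine replicate 2 or combination replicate 3, and 0 without combination replicate 2. Against valproic acid it was 5 without combination replicate 1 and 1 without valproic acid replicate 3.

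The 3 genes that the rule left out all fell with both inhibitors and both combinations, and none was called with decitabine. JADE2, a paralog of JADE1, changed by -1.43 with panobinostat, by -1.74 with valproic acid and by -3.01 in each combination. In the order panobinostat, valproic acid and their combinations with decitabine, the changes of CHD3, the NuRD paralog of CHD4, were -0.94, -1.10, -1.85 and -1.5, and those of the acetyltransferase gene KAT2A -1.15, -1.15, -1.5 and -0.92. With them the counts of 99 genes would be 6 up and 10 down with panobinostat (16.2%, against 7.39% of all genes), 6 and 5 with valproic acid (11.1%, against 7.47%), 9 and 20 with decitabine plus panobinostat (29.3%, against 23.2%) and 6 and 18 with decitabine plus valproic acid (24.2%, against 17%). The member counts above therefore leave out 3 of the lower calls of these families. The shares of the 99 genes are without the level filter. Among all genes with a mean level of at least 5, the shares called were 17.6%, 17.3%, 41.9% and 31.2% in the same order.

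A list of 101 other chromatin genes outside the symbol pattern, such as EP300, EZH2 and PRMT5, had 71 measured genes. Of these, 1 was called higher and 2 lower with decitabine, 3 and 9 with panobinostat, 2 and 3 with valproic acid, 6 and 20 with decitabine plus panobinostat and 4 and 13 with decitabine plus valproic acid. In that order these were 4.23%, 16.9%, 7.04%, 36.6% and 23.9% of the list, against 3.96%, 7.39%, 7.47%, 23.2% and 17% of all genes. Among genes with a mean level of at least 5 the shares of all genes were 7.99%, 17.6%, 17.3%, 41.9% and 31.2%. The shares of the list are without that filter, so these sets are unlike. The median change of the list in the combinations was -0.24 and -0.18, beside -0.085 and -0.121 for the members. SUV39H1 and JMJD1C are given as examples from the list, and no set rule chose them. SUV39H1, a writer of methylation at lysine 9, fell by 1.95 with decitabine plus panobinostat and by 1.24 with decitabine plus valproic acid (limma adjusted p 5.56e-08 and 1.92e-05). JMJD1C, a relative of KDM3B, rose by 1.22 and 0.58 (adjusted p 2.73e-05 and 0.0157), whereas KDM3B fell in the first of these comparisons.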

How the data were processed

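RNA of 18 U937 samples (6 groups of 3) was hybridised to Affymetrix Human Gene 2.0 ST arrays. The authors deposited log2 signals for 48226 probe sets, made with RMA per the submitters' processing notes (version not given in the sources used here). Gene symbols came from the platform annotation: 16098 probe sets had 1 symbol, 0 several and 32128 none, and 14884 genes remained with the brightest probe set each (779 genes had more than 1). No symbol needed an update. Quantile normalization and summary in RMA compress low signals, so changes near background can be understated.

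One mean per group was fitted over all 18 arrays with limma 3.58.1 in R 4.3.3 (12 residual degrees of freedom), and 13 comparisons were tested, each Benjamini-Hochberg adjusted over all genes and called at an adjusted p under 0.05. The code was tested on simulated data. Error is limited by 3 arrays per group. No label gives a batch or scan date. For each comparison with control, the text names the 6 largest rises and 6 largest falls among non-overlapping called members. For combinations against their agents it names the 3 largest each way. It also names members called elsewhere and genes from a list of landmarks. Some measured landmarks that were not called against control, such as PHF6, PHF8 and PRDM8, are not described above. The members and lists were chosen with earlier results of these data known. Alternatives were single arrays left out, only the compared groups, the replicate number as a block, the mean of probe sets, a level filter, centred arrays, a variance trend and symbols as given.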

Additional observations from a re-analysis of the deposited data

How the results depend on the processing

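No named gene reversed its direction at a call. With single arrays left out, the member counts ranged from 2 to 3 with decitabine, 7 to 11 with panobinostat, 3 to 7 with valproic acid, 22 to 29 with decitabine plus panobinostat and 13 to 21 with decitabine plus valproic acid. Against the agents they ranged from 13 to 17 (decitabine plus panobinostat against decitabine), 3 to 6 (against panobinostat), 0 to 10 (decitabine plus valproic acid against decitabine) and 1 to 5 (against valproic acid), and from 0 to 1 for the interaction with panobinostat. They were 0 throughout for the interaction with valproic acid and for both comparisons of the inhibitors. Fitting only the arrays of the compared groups gave 8 members with panobinostat, 12 with decitabine plus valproic acid and 1 for decitabine plus valproic acid against decitabine, with fewer residual degrees of freedom. Testing only genes of mean level of at least 5 gave 8 for decitabine plus panobinostat against panobinostat. With centred arrays decitabine plus panobinostat gave 9 up and 22 down. Other counts stayed within 1.5 times. The labels do not say that replicate numbers pair the arrays. Over 45 same-numbered pairs of different groups the median correlation of deviations was 0.02 (-0.108 to 0.104). Over 90 differently numbered pairs it was -0.003 (-0.121 to 0.146). These values show no sign of pairing but cannot exclude it, for example for some of the genes. With the replicate block the counts were 2, 13, 7, 28 and 19 against control in the order above, and 22, 6, 6 and 3 against the agents. With symbols not updated nothing changed, since none needed an update. With 3 arrays a group, outlying arrays within a group were not tested.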
